A study of Mus musculus with 12 samples.

Results

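Dopamine is made from tyrosine in 2 enzymatic steps, and the genes described here encode those enzymes and the enzymes that make and recycle their cofactor. They are Th, Ddc, Gch1, Pts, Spr, Qdpr and Pcbd1, the 7 rows with these symbols among 24346 genes. All 7 had enough reads to be tested. RNA came from hKO1-positive cells, which the labels use to mark dopaminergic neurons, sorted from dissected C57BL/6 mouse midbrain. The 4 groups of 3 libraries each had received saline or 20 µg of preformed G51D α-synuclein fibrils at 5 µg/µL in the substantia nigra of both sides, and were taken 7 or 12 weeks later. All 4 groups carried the hKO1 reporter and the surgery. What drives the reporter, the age of the mice and whether a library held 1 animal or several are not given in the sources used here. No label says that replicates were separate animals, so p-values measure only the spread between these samples.

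Tyrosine hydroxylase, encoded by Th, turns tyrosine into L-DOPA and is the rate-limiting enzyme of dopamine synthesis. Aromatic L-amino acid decarboxylase, encoded by Ddc, turns L-DOPA into dopamine and also makes serotonin from its precursor. Tyrosine hydroxylase works only with tetrahydrobiopterin, which is built from GTP by GTP cyclohydrolase (Gch1), 6-pyruvoyltetrahydropterin synthase (Pts) and sepiapterin reductase (Spr). After each reaction the oxidized cofactor is restored by pterin-4a-carbinolamine dehydratase (Pcbd1) and quinoid dihydropteridine reductase (Qdpr). In humans, inherited loss of GTP cyclohydrolase function causes dopa-responsive dystonia.

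The promoters of Th, Gch1 and Qdpr are shown because these genes had the 3 largest differences between the times relative to their standard errors, with Th and Gch1 lower and Qdpr higher at 12 weeks. Each run is the 250 bases before the annotated start in RefSeq GRCm38.p6, on the strand of the gene, 5′ to 3′. All 7 genes were matched there by symbol. Th lies at chr7:142899996-142900245, Gch1 at chr14:47189414-47189663 and Qdpr at chr5:45450230-45450479, all on the minus strand. Capitals mark matches on either strand to TGACGTCA (the full cyclic AMP response element) or its core TGACG, to CCAAT, to the GC box GGGCGG, to TATAAA or to the NR4A motif AAAGGTCA.
Th: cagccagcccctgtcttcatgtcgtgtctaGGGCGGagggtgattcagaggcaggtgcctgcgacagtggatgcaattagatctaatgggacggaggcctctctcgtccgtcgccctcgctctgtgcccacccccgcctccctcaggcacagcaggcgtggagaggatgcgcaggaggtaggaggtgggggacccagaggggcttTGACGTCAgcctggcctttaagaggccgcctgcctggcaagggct
Gch1: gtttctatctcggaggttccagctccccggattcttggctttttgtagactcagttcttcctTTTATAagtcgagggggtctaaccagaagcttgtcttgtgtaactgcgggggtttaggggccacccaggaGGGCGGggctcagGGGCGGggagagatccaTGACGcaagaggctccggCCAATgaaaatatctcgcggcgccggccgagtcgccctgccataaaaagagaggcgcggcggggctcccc
Qdpr: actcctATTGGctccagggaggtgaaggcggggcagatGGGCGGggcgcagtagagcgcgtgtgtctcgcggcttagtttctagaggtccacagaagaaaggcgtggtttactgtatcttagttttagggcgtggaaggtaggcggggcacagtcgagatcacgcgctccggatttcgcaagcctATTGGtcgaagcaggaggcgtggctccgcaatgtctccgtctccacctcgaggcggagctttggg
The Th promoter held the full cyclic AMP response element 45 bases before the start and a GC box at 220. Such a full element was in 1.55% of 32817 promoters of this length, and in none of the other 6 genes. Gch1 held the core TGACG at 88 bases, a motif in 17.7% of all promoters, beside CCAAT at 70 and GC boxes at 118 and 105. Gch1 also held TATAAA on the reverse strand at 188 bases. Qdpr held CCAAT on the reverse strand at 65 and 244 bases and a GC box at 212, and none of the other motifs. CCAAT was in 33.8% of all promoters and the GC box in 32.7%.

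Pts held a GC box at 45 bases, Spr held GC boxes on the reverse strand at 28 and 88, and Pcbd1 held TATAAA on the reverse strand at 250. TATAAA was in 12.4% of all promoters. Ddc has 2 annotated starts, and the upstream one carried the NR4A motif on the reverse strand 73 bases before the start, overlapping a reverse TATAAA at 68, while the second held CCAAT on the reverse strand at 55 bases. The NR4A motif, bound by the family of Nr4a2, a transcription factor of midbrain dopaminergic neurons, was in 1.34% of all promoters. These are matches of letters, and no binding was measured. The upstream Ddc sequence, at chr11:11898145-11898394 on the minus strand, is given to show that overlap.
Ddc: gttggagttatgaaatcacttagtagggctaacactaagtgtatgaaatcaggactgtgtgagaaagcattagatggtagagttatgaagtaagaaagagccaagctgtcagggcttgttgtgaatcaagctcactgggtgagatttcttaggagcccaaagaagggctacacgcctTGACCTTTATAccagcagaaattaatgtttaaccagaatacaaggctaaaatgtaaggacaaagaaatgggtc

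The 12 libraries held 2506730 to 5533324 assigned fragments. Fragments were found for 17409 genes in synuclein replicate 2 at 12 weeks and for 19960 to 21135 genes in the other libraries. That library and replicate 1 of its group were also left out together as a check, which left 1 library in the group. They are called below the libraries that stood apart. By genes found only replicate 2 did so, as replicate 1 had 19960. The sorted material was not purely dopaminergic. The 15 tested genes of 16 on a list of other dopaminergic neuron genes summed to 361 to 1790 CPM (counts relative to library size, with TMM scaling factors) across libraries, while 11 oligodendrocyte markers summed to 17167 to 45949 CPM and 8 endothelial markers to 6752 to 15462 CPM. In such bulk samples, fewer cells of a type and less RNA per cell cannot be told apart.

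On the length-corrected FPKM scale, the recycling enzyme Qdpr was by far the most abundant of the 7 transcripts. Its level was 1162 ± 476 FPKM (SD, n = 12), from 655 to 2028, and its mean was at rank 43 from the top of all genes. Th followed at 233 ± 140 FPKM, from 99.5 to 528. Qdpr was above Th, and Th above each of the other 5 genes, in 12 of 12 libraries.

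The other 5 transcripts were lower and closer together. Ddc stood at 96.6 ± 34.6 FPKM, Spr at 66.1 ± 16.3, Gch1 at 46.4 ± 17.5, Pts at 36.1 ± 11.8 and Pcbd1 at 24.6 ± 12.5 (SD, n = 12). Neighbours in this order were not separated beyond their spread. Ddc was above Spr in 9 of 12 libraries, in 6 of 6 at 7 weeks and 3 of 6 at 12 weeks. Spr was above Gch1 in 9 of 12 libraries, in 3 of 6 at 7 weeks and 6 of 6 at 12 weeks. Gch1 was above Pts in 10 of 12 and Pts above Pcbd1 in 10 of 12. Behind these levels, Qdpr had 3002 to 8602 fragments per library, Th 582 to 2793, Ddc 246 to 1255, Gch1 157 to 787, Spr 100 to 471, Pts 49 to 181 and Pcbd1 24 to 120.

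**Figure D1:**
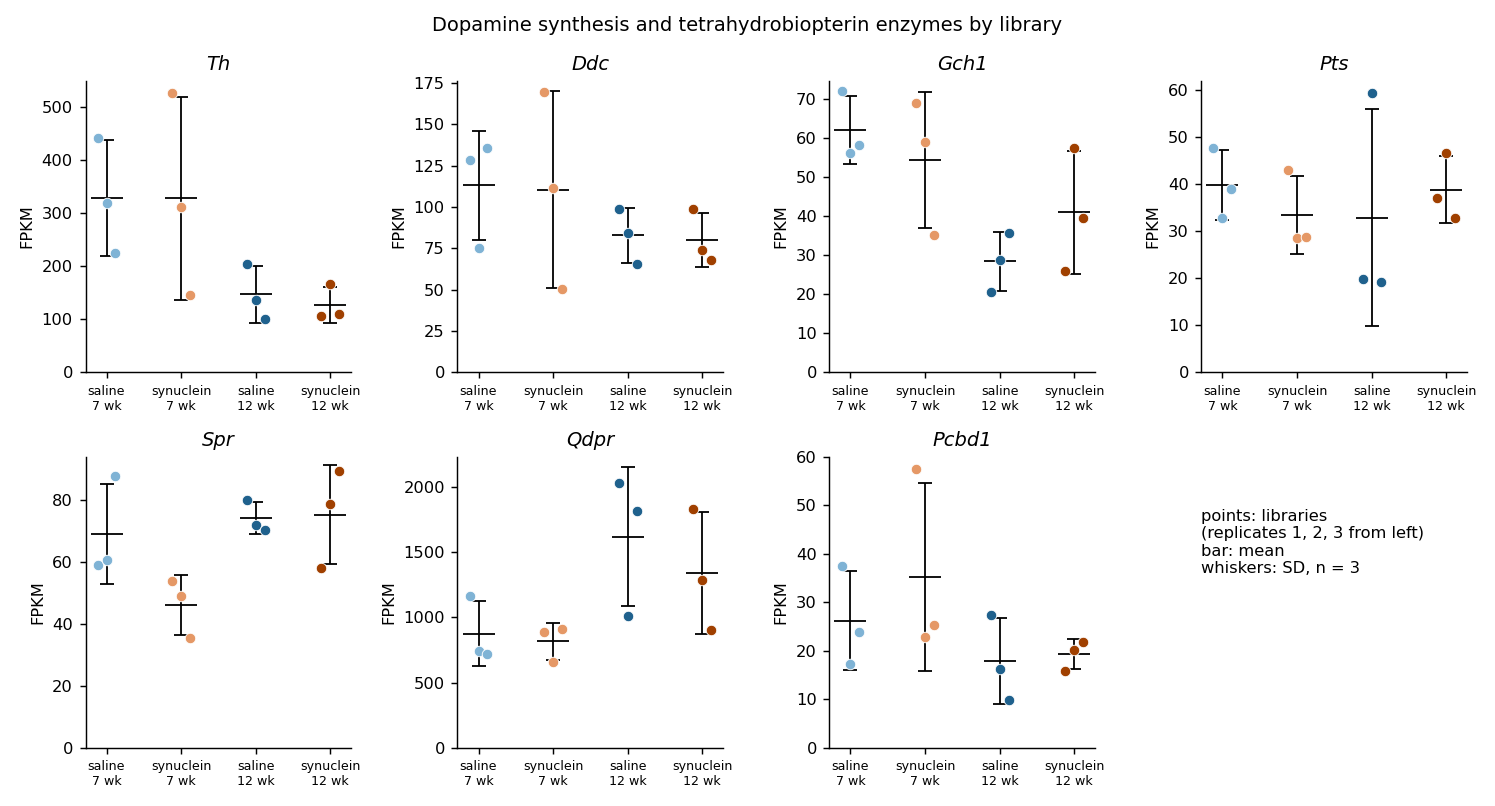
FPKM of each enzyme gene (vertical axes, each starting at 0) in the 4 groups, with 1 point per library in replicate order, a bar at the group mean and whiskers of 1 SD (n = 3). Th lay between 145 and 528 FPKM at 7 weeks and between 99.5 and 205 at 12 weeks, while the highest Qdpr values, up to 2028 FPKM, were at 12 weeks.

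From 7 to 12 weeks, over both treatments, Th fell and was the 1 gene of 7 that passed the test over all genes. Gch1 had a lower fold and Qdpr a higher one, neither past that test, and Pts was close to its earlier level. Over all 17380 genes tested, edgeR called 0.834%, with 0.293% lower. Of the 7 genes, 5 had lower folds and 2 higher, and 3 had an unadjusted p under 0.05, against 9.82% of all genes. The median log2 fold of the 7 was −0.47, against −0.03 over all genes.

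Th, at chr7:142892776-142899966, stood at 712, 518 and 362 CPM in saline replicates 1 to 3 at 7 weeks and at 858, 502 and 233 CPM in the synuclein replicates. At 12 weeks it stood at 334, 217 and 161 CPM after saline and at 169, 256 and 173 CPM after synuclein. All 6 libraries at 12 weeks lay below the median at 7 weeks, 510 CPM, and the highest single library was synuclein replicate 1 at 7 weeks. The ranges still overlapped, because synuclein replicate 3 at 7 weeks was lower than 2 of the later libraries. None of the 7 genes was without overlap between 6 and 6 libraries, as 0.944% of all genes were. The log2 fold change of Th was −1.29 ± 0.27 (SE), or 0.410 of the level at 7 weeks, with an edgeR adjusted p of 0.0376. That call rested on a narrow margin: it was lost without any 1 of 10 of the 12 libraries, with log2 folds of −1.41 to −1.01 and edgeR adjusted p of 0.0502 to 0.115. It was kept without synuclein replicate 3 at 7 weeks (−1.45, edgeR adjusted p = 0.0132) or synuclein replicate 2 at 12 weeks (−1.38, edgeR adjusted p = 0.0234). It was also lost in limma fits to log2 FPKM (−1.19, limma adjusted p = 0.121 and 0.154), which called 5 and 1 of 17380 genes. Without both synuclein libraries at 12 weeks that stood apart, which left 1 library in that group, the log2 fold was −1.39.

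**Figure D2:**
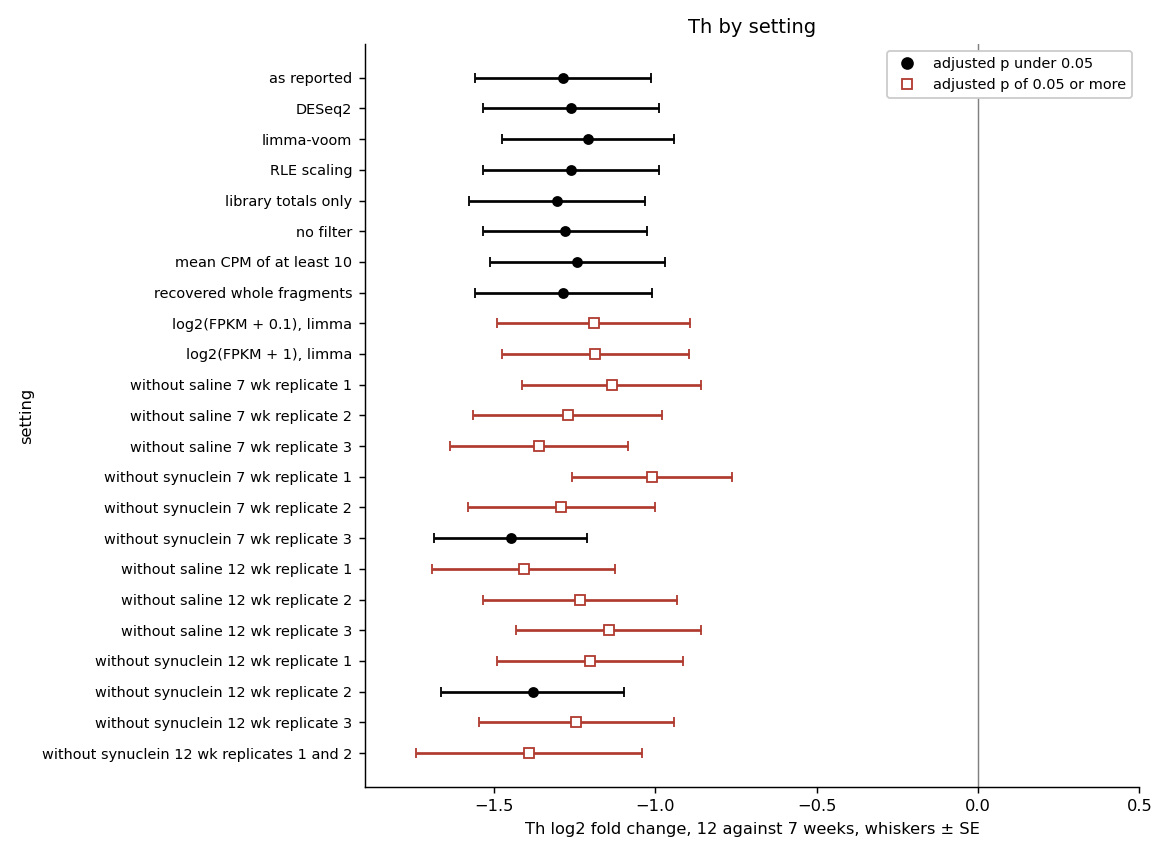
Th log2 fold change of 12 against 7 weeks over both treatments (horizontal axis, whiskers ± SE) as reported, under other tools, scalings and filters, and without single libraries (vertical axis), with filled circles at an adjusted p under 0.05 and open squares at 0.05 or more. All folds shown are below 0, from −1.45 to −1.01, while the adjusted p crosses 0.05 when most single libraries are left out.

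Qdpr, at chr5:45434032-45450229, recycles the cofactor after each hydroxylation. It stood at 1431, 921 and 884 CPM after saline and 1098, 805 and 1113 CPM after synuclein at 7 weeks. At 12 weeks the values were 2525, 1238 and 2240 CPM after saline and 2215, 1513 and 1101 CPM after synuclein. All 6 later libraries were above the 7-week median of 1010 CPM, but saline replicate 1 at 7 weeks exceeded 2 of them, so the groups overlapped. The log2 fold was 0.79 ± 0.22 (SE; edgeR adjusted p = 0.107), and DESeq2, which called 2.69% of all genes, called it (adjusted p = 0.0114).

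Gch1, at chr14:47153895-47189402, encodes the rate-limiting enzyme of cofactor synthesis. It stood at 191, 150.0 and 155 CPM after saline and 185, 157 and 93.1 CPM after synuclein at 7 weeks. At 12 weeks it stood at 55.1, 76.1 and 95.0 CPM after saline and 68.0, 146 and 104 CPM after synuclein. Like Th, all 6 later libraries were under the 7-week median of 156 CPM, with synuclein replicate 2 at 12 weeks the closest to it. The log2 fold was −0.79 ± 0.22 (SE; edgeR adjusted p = 0.111), and DESeq2 called it (adjusted p = 0.0341).

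Spr, at chr6:85133680-85137764, completes cofactor synthesis. It stood at 62.1, 64.0 and 92.7 CPM after saline and 57.6, 51.8 and 37.1 CPM after synuclein at 7 weeks, and at 85.3, 75.5 and 74.1 CPM and 60.1, 79.3 and 92.9 CPM at 12 weeks. All 6 later libraries were above the 7-week median of 59.8 CPM, by a small margin in synuclein replicate 1. The log2 fold was 0.38 ± 0.19 (SE; edgeR adjusted p = 0.557).

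Ddc, at chr11:11814101-11898144, shares its locus with 1700042O10Rik, which had too few reads to be tested. It stood at 233, 138 and 247 CPM after saline and 312, 202 and 91.1 CPM after synuclein at 7 weeks, and at 182, 152 and 119 CPM and 176, 129 and 122 CPM at 12 weeks. Its 12-week values were all below the 7-week median of 218 CPM, yet the lowest library of all was at 7 weeks. The log2 fold was −0.47 ± 0.25 (SE; edgeR adjusted p = 0.570).

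The 2 least abundant transcripts, Pts at chr9:50521617-50528641 and Pcbd1 at chr10:61089331-61094329, were the least precise. Pts stood at 40.6, 28.3 and 33.3 CPM after saline and 37.0, 24.3 and 24.6 CPM after synuclein at 7 weeks, and at 17.1, 50.4 and 16.4 CPM and 31.0, 38.1 and 27.8 CPM at 12 weeks. Saline at 12 weeks thus held both the highest and the lowest Pts values, and the log2 fold was −0.05 ± 0.30 (SE; edgeR adjusted p = 0.985). Pcbd1 stood at 23.8, 10.96 and 15.2 CPM after saline and 36.7, 14.6 and 16.0 CPM after synuclein at 7 weeks, and at 17.7, 10.3 and 6.32 CPM and 9.87, 12.3 and 13.6 CPM at 12 weeks. Its highest library was synuclein replicate 1 at 7 weeks, also the highest for Th and Ddc, and 5 of 6 later libraries were below the 7-week median of 15.6 CPM. The log2 fold was −0.73 ± 0.38 (SE; edgeR adjusted p = 0.576).

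Within each treatment the folds of Th, Gch1 and Qdpr had the same signs, but none of the 7 genes was called, nor was any gene of the 17380 (0% in edgeR for both treatments). After saline, 3 of the 7 had an unadjusted p under 0.05, against 1289 genes or 7.42% of all, and DESeq2 called 0.949% of all genes. Th was at −1.16 ± 0.39, Gch1 at −1.13 ± 0.31 and Qdpr at 0.89 ± 0.30 (log2 fold ± SE). Th and Gch1 were lower at 12 weeks in all 3 saline libraries without overlap, as were 7.83% of all genes (16.2% in either direction). DESeq2 called Gch1 there (adjusted p = 0.0368).

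After synuclein, 3 of the 7 again had an unadjusted p under 0.05, against 1318 genes or 7.58% of all, and DESeq2 called 0.472%. Th was at −1.41 ± 0.39, Qdpr at 0.68 ± 0.30, Spr at 0.66 ± 0.27 and Gch1 at −0.45 ± 0.31 (log2 fold ± SE). Spr was higher without overlap, as were 5.13% of all genes, and Pcbd1 lower without overlap, as were 7.13% (12.3% in either direction). Th was called by DESeq2 (adjusted p = 0.0482). The comparisons in the 2 treatments use separate libraries, and the test of the difference between them is given with the fibril comparisons.

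**Figure D3:**
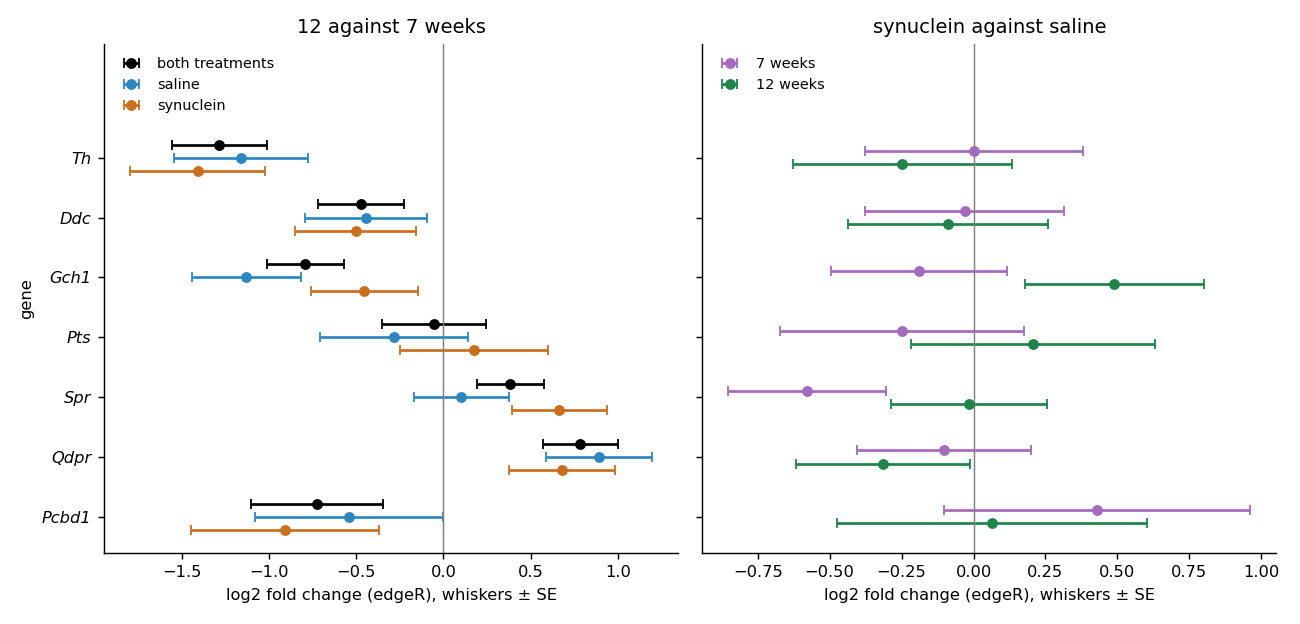
Log2 fold change in edgeR (horizontal axes, whiskers ± SE) of each gene (vertical axis) for 12 against 7 weeks, left, and for synuclein against saline, right. Th at −1.29 and Qdpr at 0.79 lie on opposite sides of 0 over both treatments, whereas the folds for synuclein lie between −0.58 and 0.49.

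Ratios within a library do not depend on how the library is scaled, so they tested directly whether Th and another enzyme moved unequally between the times. Th fell relative to Qdpr, to Spr and to Ddc. The log2 ratio of Th to Qdpr ran from −2.25 to −0.36 at 7 weeks and from −3.80 to −2.51 at 12 weeks, with no overlap. The mean log2 ratio differed by −1.96 (exact permutation of time within treatment, 2-sided p = 0.005, the smallest the 400 assignments can give, and 0.03 adjusted over the 6 ratios). The ratio of Th to Spr differed by −1.60 (exact permutation p = 0.01, adjusted 0.03) and that of Th to Ddc by −0.82 (exact permutation p = 0.015, adjusted 0.03).

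Th did not pass the test against the other 3 enzymes. The log2 differences were −1.07 to Pts (exact permutation p = 0.035, adjusted 0.0525), −0.54 to Pcbd1 (exact permutation p = 0.06, adjusted 0.072) and −0.40 to Gch1 (exact permutation p = 0.25, adjusted 0.25). The ratio of Th to Gch1 differed by −0.02 after saline and −0.78 after synuclein. The 6 ratios share Th and so are not independent. Ratios of Th to Qdpr and to Spr passed whichever single library was left out, and that of Th to Ddc in 6 of 12 such tests (log2 differences of −1.02 to −0.69). The ratios to Pts, Pcbd1 and Gch1 passed in 3, 2 and 1 of the 12. Without both synuclein libraries at 12 weeks that stood apart, the log2 differences were −0.81 to Ddc, −1.83 to Spr and −1.80 to Qdpr, each with an adjusted exact permutation p of 0.05, which is at the threshold and did not pass. That design has 80 assignments, and its smallest unadjusted p is 0.0125.

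**Figure D4:**
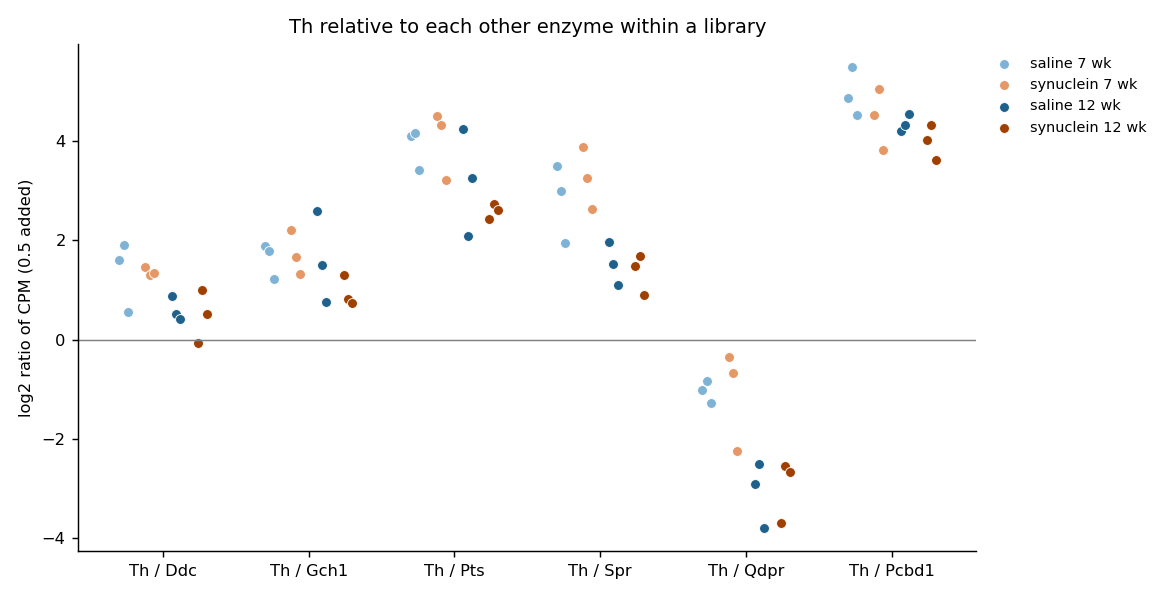
Log2 ratio of Th to each other enzyme gene (CPM with 0.5 added, vertical axis), with 1 point per library in the order saline and synuclein at 7 weeks, then saline and synuclein at 12 weeks. The Th to Qdpr ratio lies at −2.25 to −0.36 at 7 weeks and at −3.80 to −2.51 at 12 weeks, and the other ratios overlap between the times.

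Markers of cell types moved with these differences. Of the 15 other dopaminergic genes tested, 12 had lower folds at 12 weeks, 2 were called lower (Chrna6 and Slc18a2) and the median log2 fold was −1.24. Their summed level ran from 469 to 1790 CPM at 7 weeks and from 361 to 808 CPM at 12 weeks. Foxa2 and Lmx1b, from the same list, had 0 fragments in 4 libraries each. Slc6a3, the dopamine transporter, was at −1.26 ± 0.30 (log2 fold ± SE; edgeR adjusted p = 0.0569), Slc18a2, the vesicular monoamine transporter, at −1.45 ± 0.33 (0.0469) and Nr4a2 at −1.19 ± 0.32 (0.0948). Per 100 CPM of that summed list, Th was at 40.9 to 53.9 CPM at 7 weeks (median 48.8) and 39.3 to 55.1 CPM at 12 weeks (median 42.9), so the ranges nearly coincided. This was not particular to dopaminergic genes. Per 100 CPM of the summed pan-neuronal genes described below, Th was at 23.9 to 43.9 CPM at 7 weeks and 21.3 to 41.2 CPM at 12 weeks.

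Of the other enzymes, Spr and Qdpr were without overlap between the times relative to the dopaminergic list, and no test was run on these values. The sum of that list itself had a median of 969 CPM at 7 weeks and 433 CPM at 12 weeks. In plain CPM both genes overlapped between the times, and the share of all genes without overlap relative to the list is not known. Per 100 CPM of the list, Ddc had a median of 18.4 CPM at 7 weeks and 30.4 CPM at 12 weeks, with overlap, and Gch1 of 15.8 and 21.4 CPM, with overlap. Spr ran from 3.22 to 10.5 CPM per 100 at 7 weeks and from 10.6 to 21.1 CPM at 12 weeks, without overlap. For Qdpr the corresponding ranges were 61.4 to 237 and 250 to 621 CPM, also without overlap. Pts had a median of 2.79 CPM per 100 at 7 weeks and 6.79 CPM at 12 weeks, and Pcbd1 of 1.63 and 2.44 CPM, both with overlap. Spr and Qdpr were also without overlap per 100 CPM of the summed pan-neuronal genes. On that scale Spr ran from 2.26 to 7.57 CPM at 7 weeks and from 9.49 to 14.5 CPM at 12 weeks. The ranges of Qdpr were 43.1 to 114 and 135 to 438 CPM.

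Qdpr lay in similar ranges at both times relative to the oligodendrocyte list. All 11 oligodendrocyte markers had higher folds at 12 weeks, 5 were called, and the median log2 fold was 0.87. Their sum ran from 17167 to 26866 CPM at 7 weeks and from 26386 to 45949 CPM at 12 weeks, with none of them at 0 in any library. Per 100 CPM of that sum, Qdpr was at 4.52 to 5.35 CPM at 7 weeks (median 5.21) and 3.93 to 5.50 CPM at 12 weeks (median 5.02). Relative to this rising sum, Th, Gch1 and Pcbd1 were lower at 12 weeks without overlap, and Ddc, Pts and Spr overlapped. In plain CPM Th, Gch1 and Pcbd1 overlapped between the times. The share of all genes without overlap relative to the oligodendrocyte list is not known. The part of the marker levels in the differences of Th and Qdpr was not tested.

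**Figure D5:**
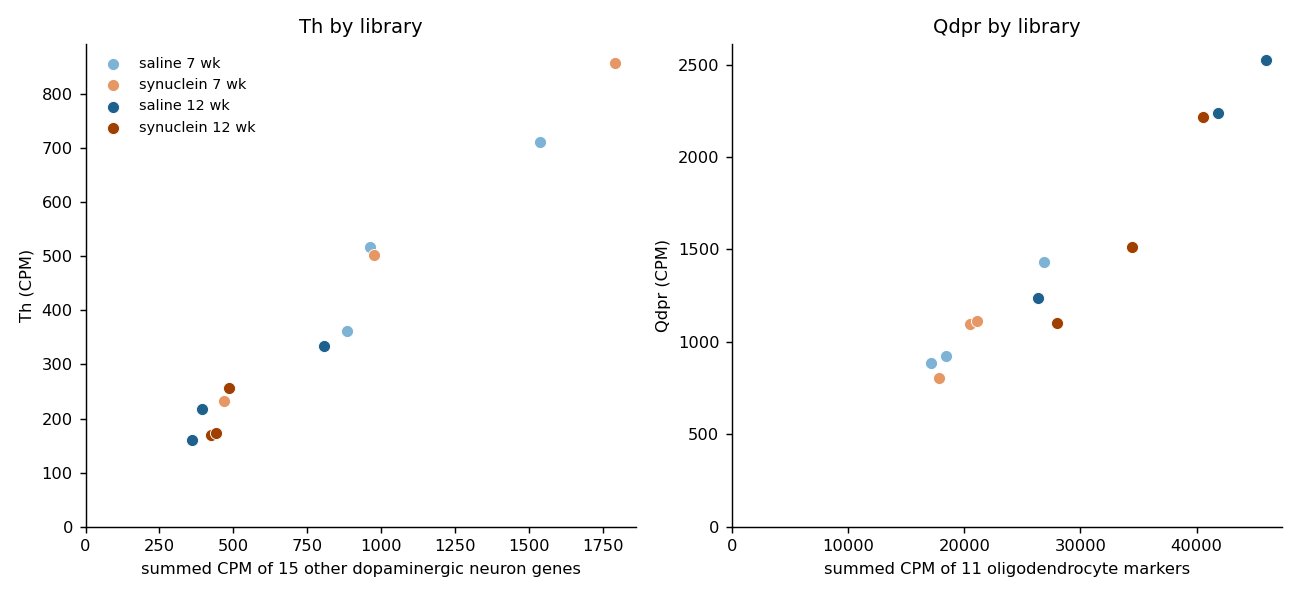
Th against the summed CPM of 15 other dopaminergic neuron genes, left, and Qdpr against the summed CPM of 11 oligodendrocyte markers, right, with 1 point per library and both axes starting at 0. Th is higher where its list is higher, up to 858 CPM in synuclein replicate 1 at 7 weeks, and Qdpr with its list up to 2525 CPM in saline replicate 1 at 12 weeks.

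The genes whose log2 CPM followed each of these 2 most closely were listed among 11277 genes with a mean of at least 10 CPM. For Th the 5 highest Pearson correlations were with Zcchc12 (r = 0.962), Fgf13 (0.958), Slc6a3 (0.956), Cdk14 (0.954) and Slc18a2 (0.953). For Qdpr they included Desi1 (r = 0.983), Car2 (0.982), Lap3 (0.974) and Sept4 (0.965). Car2 encodes a carbonic anhydrase found in oligodendrocytes. Among the enzymes themselves, Th correlated with Pcbd1 (r = 0.77), Ddc (0.71) and Gch1 (0.71), and had r = −0.44 with Qdpr. These correlations are descriptions over 12 libraries that differ in time, depth and cell makeup.

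The other cell type lists gave the following over both treatments. All 10 pan-neuronal genes had lower folds at 12 weeks with 2 called, Snap25 (−1.40 ± 0.23, log2 fold ± SE) and Stmn2 (−1.04 ± 0.22), and their sum went from 975 to 2549 CPM at 7 weeks to 512 to 835 CPM at 12 weeks. Mbp was among the most abundant oligodendrocyte genes, Ly6c1 and Flt1 were the most abundant endothelial ones, and 8 of 8 endothelial genes had lower folds with none called. Microglia markers, C1qb among the most abundant, had 9 of 10 lower folds, with 4 of 10 after saline and 10 of 10 after synuclein. Their sum reached 496 CPM in synuclein replicate 3 at 7 weeks, against at most 207 CPM in the other libraries. Astrocyte markers, led by S100b and Slc1a2, had 4 of 8 lower folds, and pericyte markers, led by Vtn and Rgs5, 2 of 5. All 5 ependymal markers, led by Rarres2 and Tmem212, had higher folds and reached a sum of 446 CPM in 1 synuclein library at 12 weeks, against 38.9 CPM or less at 7 weeks. No gene of these 4 lists was called. Serotonin synthesis also needs Ddc and the cofactor, and the serotonergic genes were led by Tph2 and Slc6a4. Their 5 folds were lower with none called, and their sum was 766 CPM in synuclein replicate 1 at 7 weeks, the library highest for Th, Ddc and Pcbd1, against at most 187 CPM in the other libraries. Noradrenergic genes, Slc6a2 among the most abundant, summed to 6.52 to 36.1 CPM.

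Fibrils were compared with saline at each time to see what the injected protein changed in the same genes. No enzyme gene was called at 7 weeks, when edgeR called 0% of all genes (285 at an unadjusted p under 0.05, or 1.64%) and DESeq2 called 0. Th was at 530 ± 175 CPM after saline and 531 ± 313 CPM after synuclein (SD, n = 3), a log2 fold of 0.00 ± 0.38 (SE) whose sign changed with the scaling. Spr had the largest fold, with 48.8 ± 10.5 CPM after synuclein and 72.9 ± 17.1 CPM after saline (SD, n = 3). Its 3 synuclein libraries lay below all 3 saline libraries, as was so for 3.75% of all genes (8.45% in either direction). The Spr log2 fold was −0.58 ± 0.27 (SE; unadjusted p = 0.049 and adjusted p = 1 in edgeR). Pcbd1 was at 0.43 ± 0.53, Pts at −0.25 ± 0.42, Gch1 at −0.19 ± 0.31, Qdpr at −0.10 ± 0.30 and Ddc at −0.03 ± 0.35 (log2 fold ± SE).

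At 12 weeks no enzyme gene was called either, with 0% of all genes called in edgeR, 968 or 5.57% at an unadjusted p under 0.05, and 0.069% in DESeq2. Gch1 had the largest fold, with 106 ± 39.0 CPM after synuclein and 75.4 ± 20.0 CPM after saline (SD, n = 3), a log2 fold of 0.49 ± 0.31 (SE; edgeR adjusted p = 0.902). Qdpr was at −0.31 ± 0.30, Th at −0.25 ± 0.38, Pts at 0.21 ± 0.42, Ddc at −0.09 ± 0.35, Pcbd1 at 0.06 ± 0.54 and Spr at −0.02 ± 0.27. None of the 7 genes separated the groups at this time, where 10.7% of all genes did.

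The fibril effect at 12 weeks was also compared with that at 7 weeks. The differences of the log2 folds were 0.68 ± 0.44 for Gch1, 0.56 ± 0.39 for Spr, 0.46 ± 0.60 for Pts, −0.37 ± 0.76 for Pcbd1, −0.25 ± 0.54 for Th, −0.21 ± 0.43 for Qdpr and −0.06 ± 0.49 for Ddc (SE). None was called (edgeR adjusted p of 0.952 to 0.994), nor was any gene in edgeR or DESeq2, with 780 or 4.49% at an unadjusted p under 0.05. Averaged over both times, synuclein against saline gave 0 called genes in edgeR (431 or 2.48% at an unadjusted p under 0.05) and 0.0173% in DESeq2, none of them an enzyme gene. The 2 fibril comparisons use separate libraries, but each shares libraries with the comparisons of the times.

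Beyond the 7 enzymes, 13 further genes use, regulate or spare tetrahydrobiopterin. Of these 12 were tested, and from 7 to 12 weeks 8 had lower folds and 4 higher, with none called and a median log2 fold of −0.19. The most abundant was Nos3, the endothelial nitric oxide synthase, at 390 CPM on average and −0.37 ± 0.22 (log2 fold ± SE). Tph2, the neuronal tryptophan hydroxylase, was at −2.12 ± 0.89 and the carbonyl reductase Cbr1 at −0.26 ± 0.23. Nos3 is a gene of endothelium, whose marker sum was 8598 to 15462 CPM at 7 weeks and 6752 to 11649 CPM at 12 weeks. For synuclein at 12 weeks 10 of the 12 had higher folds, with none called.

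Gchfr, the feedback regulator of GTP cyclohydrolase, was singled out after its values were seen. It averaged 7.65 and 37.1 CPM after saline and synuclein at 7 weeks and 0.668 and 7.31 CPM at 12 weeks, and had 0 fragments in 2 libraries. Its log2 fold between the times was −2.89 ± 0.87 (SE; edgeR adjusted p = 0.154), not past the test. It and Tph2 reached their highest levels, 92.6 and 504 CPM, both in synuclein replicate 1 at 7 weeks, the library with the highest serotonergic sum.

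Ddc needs pyridoxal phosphate, and noradrenaline is made from dopamine in 1 further step. Of 5 genes for these functions 4 were tested, all with lower folds at 12 weeks and none called, with a median of −0.67. Pyridoxal kinase, Pdxk, was the most abundant at 354 CPM and at −0.38 ± 0.17 (log2 fold ± SE). Pdxp, the pyridoxal phosphatase, was at −1.07 ± 0.38, and Dbh, the dopamine β-hydroxylase of noradrenergic neurons, at 2.86 CPM on average and −0.95 ± 0.90.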

How the data were processed

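RNA from sorted midbrain cells was amplified with a SMARTer Ultra-Low kit and sequenced in 12 libraries, per the labels' protocols. The submitters' processing notes name TopHat2 2.0.13, Bowtie2 2.2.3 and Cufflinks 2.2.1. The deposited tables hold estimated counts and, separately, FPKM for 24346 genes, all with status OK, per the file headers. No build is named in the sources used here, so coordinates are as deposited with starts moved by 1 base. The enzyme loci lie at or close to the same places in GRCm38. For Th, Gch1 and Pts the promoter does not directly adjoin the deposited locus. The Th locus ends at 142899966 and its promoter begins at 142899996. In each library 98.9% to 99.2% of deposited counts were whole multiples, within 0.02 fragments, of 1 step between 0.685 and 1.30, and dividing by that step gave the fragments.

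Counts were rounded and fitted in edgeR 4.0.16 (R 4.3.3) with TMM scaling, filterByExpr (17380 genes) and 1 mean per group over all 12 libraries, leaving 8 residual degrees of freedom (common BCV, the biological coefficient of variation, 46.6%). The p-values were adjusted by Benjamini-Hochberg across every gene tested and called under 0.05. Ratios were tested by exact permutation. The fit and the permutation were tested on simulated data. Alternatives used DESeq2 1.42.0, limma 3.58.1 (voom, and log2 of FPKM plus 0.1 or 1), other scalings and filters, recovered fragments, a replicate block, single libraries left out, and both libraries that stood apart left out. The genes and lists were chosen with earlier results of these data known. All 7 enzymes are named. Of the cofactor and pyridoxal lists the called genes or else the 4 most abundant are named, of the dopaminergic list Slc6a3, Slc18a2 and Nr4a2, of every other list the 2 most abundant, and for Th and Qdpr the 5 most like genes. Some genes that this rule names are not reported here. Promoter sequences are from RefSeq GRCm38.p6.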

Additional observations from a re-analysis of the deposited data

How the results depend on the processing

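With 3 libraries a group, edgeR called 1 of the 7 enzyme genes between the times over both treatments, and DESeq2 called 3 (Th, Gch1 and Qdpr). The fit with the replicate block called 2 (Th and Qdpr), limma on log2 FPKM 0 with either pseudocount, and fits without single libraries 0 to 2. Of all 17380 genes, edgeR called 145, DESeq2 468 and the replicate block 246. Limma on log2 FPKM called 1 gene with 0.1 added and 5 with 1 added. Leaving out single libraries gave 24 to 214 called genes. Of the 7 enzyme genes, only Qdpr was called without saline replicate 2 at 12 weeks. Within saline and within synuclein DESeq2 called 1 each, and the other settings 0. The labels do not say what a replicate number shares. Deviations of same-numbered libraries correlated at −0.06 to 0.11, and 1 of 18 pairs exceeded 0.1. Such correlations over all genes do not settle whether the samples are paired. Under the replicate block by sign flips the ratios of Th to Ddc (−0.82), Spr (−1.60) and Qdpr (−1.96) had an adjusted exact p of 0.0625, from an unadjusted 0.03125, the smallest that the 64 sign flips can give. Without both libraries that stood apart these ratios were −0.81, −1.83 and −1.80 (adjusted 0.05). With 2 CPM added, those of Th to Pts (−1.07) and Pcbd1 (−0.59) passed (adjusted 0.042). Leaving out single libraries gave −1.02 to −0.69 for Ddc, −0.64 to −0.18 for Gch1, −1.33 to −0.79 for Pts, −1.82 to −1.43 for Spr, −2.25 to −1.77 for Qdpr and −0.70 to −0.39 for Pcbd1.

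The folds that changed sign had not been called in any of the settings listed here. For Th with synuclein at 7 weeks the fold was −0.000251 in DESeq2, −0.000234 with RLE scaling, −0.00502 with no filter, −0.14 in limma-voom, −0.093 with the replicate block and −0.14 in limma on log2 FPKM with either pseudocount; Ddc was 0.040 with library totals. For Spr at 12 weeks it was 0.00725 in DESeq2, 0.00723 with RLE scaling, 0.023 with no filter, 0.00210 and 0.00234 in limma on log2 FPKM, and 0.26 without both libraries that stood apart. For the difference of the fibril effects in Ddc it was 0.069 in limma-voom, 0.043 with the replicate block, and 0.11 and 0.10 in limma on log2 FPKM. Pts in synuclein was −0.040 without both libraries that stood apart.

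Leaving out single libraries also turned signs. At 7 weeks synuclein folds ran from −0.53 to 0.35 (Th), −0.49 to 0.31 (Ddc), −0.40 to 0.039 (Gch1), −0.22 to 0.16 (Qdpr) and −0.12 to 0.77 (Pcbd1). At 12 weeks they ran from −0.44 to 0.088 (Th), −0.22 to 0.071 (Ddc), −0.060 to 0.99 (Pts), −0.17 to 0.19 (Spr) and −0.20 to 0.53 (Pcbd1). The differences between the times ran from −0.56 to 0.32 (Th), −0.37 to 0.43 (Ddc) and −0.67 to 0.22 (Pcbd1). Between the times Pts ran from −0.40 to 0.12 over both treatments and from −1.03 to 0.030 in saline, and Spr in saline from −0.00590 to 0.33. Of 994 other-setting values of the folds, 907 kept direction and call. The cause of these changes was not tested. Pts and Pcbd1 rested on the fewest fragments.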
